A study of Mus musculus with 33 samples.

Results

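The 10 genes described here encode transcription factors of autonomic neurons and of the neural crest outside the SOX and HOX families: Phox2a, Hand2, Tlx2, Insm1, Gata3, Foxd3, Tfap2a, Tfap2b, Pax3 and Zeb2. They were chosen by name, as probe sets whose platform annotation gives 1 gene symbol that is among these 10, which gave 22 of 34945 probe sets and 10 of 18193 genes. Enteric neural crest cells (ENCCs), the migrating precursors of the enteric nervous system, came from C57BL/6 mice in which Wnt1-Cre, active in the neural crest lineage, switches on a YFP reporter at the R26 locus. They were sorted for YFP from guts of embryonic day 14.5 and kept on fibronectin with FGF and EGF. The cells of a gut filled a pair of wells, 1 left untreated and 1 given 50 ng/ml GDNF, the ligand of the receptor RET, so the untreated wells also carry the transgenes and both growth factors. Whole guts, from duodenum to anus, came from wild-type C57BL/6 embryos of the same age and were not cultured. The study asked which genes GDNF regulates in ENCCs and which are particular to ENCCs within the gut. Culture, sorting and genotype therefore differ between ENCCs and whole gut together and cannot be told apart from cell type there.

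Phox2a is a homeodomain factor that directs autonomic neurons and their noradrenergic enzymes. Hand2, a basic helix-loop-helix factor, is needed for enteric and sympathetic neurons to mature, and the zinc finger factors Gata3 and Insm1 act in the same sympathoadrenal network. Tlx2 is a homeobox gene of enteric neurons whose loss in mice causes megacolon. Foxd3, a forkhead factor, and the AP-2 factors Tfap2a and Tfap2b are early regulators of the neural crest, with Foxd3 holding crest cells in a progenitor state. Pax3 works with Sox10 in crest derivatives, and Zeb2 is the gene of Mowat-Wilson syndrome, in which Hirschsprung disease is common.

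The deposited value is a normal score: each array was ranked and its ranks were turned into normal quantiles, so that every array has a median of 0 and no level, fold or true zero is kept. Scores of different genes are not compared as levels. Differences are ranked among genes only in score units, which need not mean equal changes in RNA. A probe set had a median SD of 1.06 over the RNAs read in both batches, which gives the size of 1 unit. Cells of 9 guts gave 18 ENCC RNAs on 25 arrays. Of these, 7 RNAs were read in both batches named in the sample titles, and 8 whole guts were read in batch 2. The correlation of an RNA with itself between batches was 0.117 to 0.325 over all probe sets. Probe sets appear to have been centred within batch, which takes the lasting differences between probe sets out of this r. Different whole guts correlated with each other at 0.902 to 0.952. The centring was seen over ENCC RNAs, so differences that all whole guts share against ENCCs stay in their r. The r of whole guts and the r of ENCC RNAs are therefore not comparable as reproducibility. The untreated well of gut 3 (0.117) and the treated well of gut 8 (0.247) matched a different gut's well of their own treatment more closely (0.388 and 0.268), so values without guts 3 and 8 are given where they differ in call. The labels' cell type field names ENCCs for the whole guts too, but all 11 epithelium and all 8 endothelium markers were lower in untreated ENCCs than in whole gut. So were 6 of 6 mesothelium, 7 of 8 smooth muscle, 6 of 9 macrophage and lymphoid (1 higher), 6 of 12 gut mesenchyme (1 higher) and 1 of 5 melanocyte genes. Genes of ENCC progenitors and glia were higher in 8 of 10, and neuron genes in 12 of 14 with 1 lower.

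With GDNF, 1 of the 10 genes rose and 1 fell. Phox2a rose in 9 of 9 guts and Tfap2a fell in 9 of 9 guts, while Foxd3, Tfap2b, Hand2, Tlx2, Zeb2, Pax3, Insm1 and Gata3 did not pass the test. Limma called 31.5% of all genes, 18.3% higher and 13.2% lower, so 2 of 10 genes is no more than the background. A rise in all 9 guts was seen in 11.7% of all genes and a fall in all 9 in 6.14%. The median difference of the 10 genes was -0.25, against 0.01 over all genes.

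**Figure D1:**
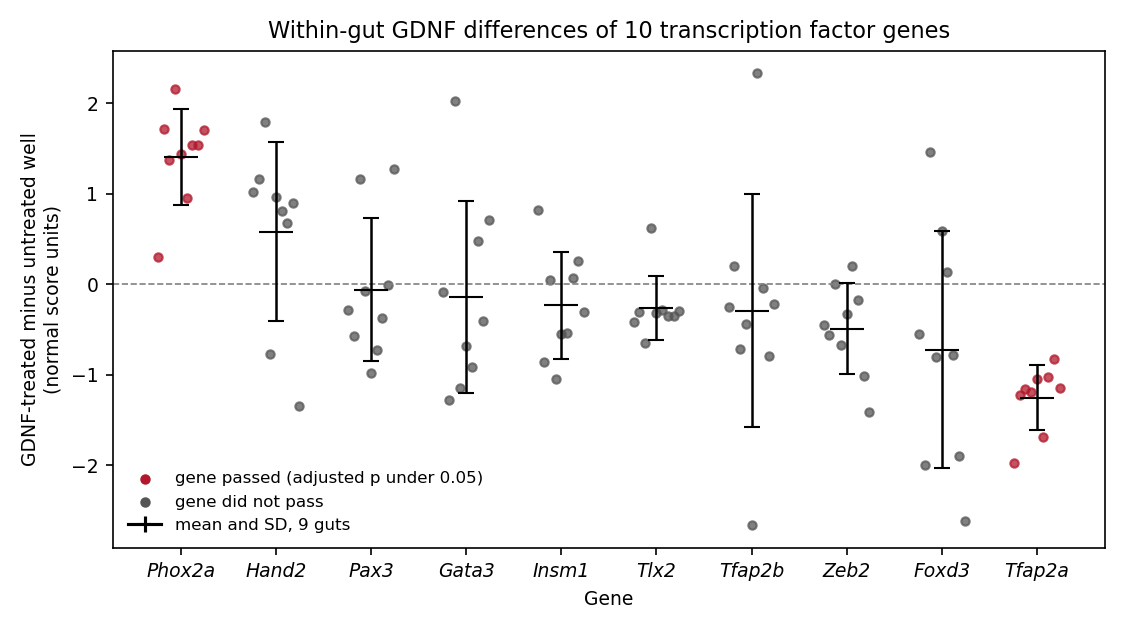
Within-gut differences of the 10 genes in normal score units (vertical axis), 1 point for each of 9 guts, with the mean and SD as black bars and genes that passed limma's test in red. Phox2a lies above 0 and Tfap2a below 0 in all guts, and the other 8 genes have guts on both sides of 0.

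Phox2a had untreated scores of -2.65 to 0.03 with a median of -1.42, and GDNF-treated scores of -1.57 to 1.48 with a median of 0.19 (n = 9 guts). The ranges overlapped, but each treated well lay above the untreated well of its own gut. The differences were 0.30 in gut 1, 1.71 in gut 2, 1.37 in gut 3, 2.16 in gut 4, 1.44 in gut 5, 0.95 in gut 6, 1.54 in guts 7 and 8, and 1.70 in gut 9. Gut 1 had the smallest difference. All these values come from 1 probe set, 1418620_at, the only one of Phox2a, so no other probe set could be set beside it. The mean rise was 1.41 ± 0.53 (SD, n = 9, limma adjusted p = 0.00034), larger than the differences of 94.5% of all genes. It was 1.36 ± 0.60 in the 8 guts of batch 1 and 1.61 ± 0.67 in the 4 guts of batch 2, where the adjusted p was 0.123 and limma called 0 genes of the whole array, with 3516 at an unadjusted p under 0.05.

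Tfap2a had untreated scores of 0.06 to 1.53 with a median of 0.78 and treated scores of -0.94 to -0.14 with a median of -0.32. Here the untreated and treated wells did not overlap, as in 5.55% of all genes. The differences ran from -1.97 in gut 1 and -1.69 in gut 6 to -0.82 in gut 8, with the remaining guts between -1.22 and -1.02. Tfap2a fell by 1.25 ± 0.36 (SD, n = 9, limma adjusted p = 0.00036), with 3.23% of genes below it. In batch 1 the difference was -1.43 ± 0.33 in 8 guts and in batch 2 it was -0.73 ± 0.45 in 4 guts, below 0 in all of them but without a call there (adjusted p = 0.434).

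Its 3 probe sets gave different values. The differences of 1426048_s_at (-1.77 ± 0.28, limma adjusted p over all probe sets 0.00025) and 1421996_at (-1.61 ± 0.39, adjusted p = 0.00033) were below 0 in 9 of 9 guts. The third, 1421995_at, was at -0.37 ± 0.94 (adjusted p = 0.421) and was above 0 in 3 guts. Over the 7 RNAs read in both batches, the first pair correlated between batches with r = 0.863 and 0.928, and 1421995_at with r = -0.373. These RNAs include treated and untreated wells, so a GDNF difference itself raises this r. The gene mean holds all 3 probe sets, so it is smaller than the fall of either of the first pair. With the median of the probe sets, Tfap2a fell by 1.62.

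The start regions of these 2 genes are shown because they are the members that passed the test. The windows are the 250 bases before the annotated start, from RefSeq on GRCm38.p6, written 5′ to 3′ on the strand of the gene, with motif matches in capitals. Phox2a lies on the plus strand, window chr7:101818063-101818312, and Tfap2a on the minus strand, window chr13:40734921-40735170, the more upstream of its 2 listed starts.
Phox2a: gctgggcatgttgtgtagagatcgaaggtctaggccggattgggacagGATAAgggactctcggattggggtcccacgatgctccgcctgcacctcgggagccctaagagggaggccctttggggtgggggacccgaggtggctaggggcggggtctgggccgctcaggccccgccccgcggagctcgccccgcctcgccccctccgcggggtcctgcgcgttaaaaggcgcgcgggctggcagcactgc
Tfap2a: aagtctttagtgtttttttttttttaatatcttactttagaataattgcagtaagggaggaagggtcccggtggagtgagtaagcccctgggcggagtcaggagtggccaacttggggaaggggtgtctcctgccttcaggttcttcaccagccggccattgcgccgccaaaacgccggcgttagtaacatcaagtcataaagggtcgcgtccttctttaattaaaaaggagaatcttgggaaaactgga
Both strands were searched for the E-box CANNTG, the GATA motif GATAA, the AP-2 motif GCCNNNGGC and the paired-type homeodomain motif, in which TAAT and ATTA stand 3 bases apart. The Phox2a window has 1 match, a GATAA that begins 202 bases before the start, and a GC content of 70.4%. The Tfap2a window has 0 matches to these letters and a GC content of 47.6%. Of 32841 windows of the same length, 66.2% hold an E-box, 22.6% GATAA, 13.7% the AP-2 motif and 0.463% the homeodomain motif, so these matches describe the letters only. Of the 10 genes, 7 were found in the table.

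Among the other crest factors, Foxd3 gave very different values from gut to gut. Its untreated scores ran from -0.61 to 2.14 (median 0.74) and its treated scores from -1.71 to 1.59 (median -0.18). The difference was 1.46 in gut 3, 0.59 in gut 5 and 0.14 in gut 6, and below 0 in the other 6 guts, down to -2.61 in gut 9. The mean of -0.72 ± 1.31 (n = 9) had a limma adjusted p of 0.170. Without gut 3 it was -0.99 and passed narrowly (adjusted p = 0.0495), and with gut 3 taken from batch 1 alone it was -0.80 (adjusted p = 0.0933). The probe set itself was steady, with r = 0.904 between batches, and 2 of the 3 guts with both wells in both batches repeated their values. Gut 8 gave -1.94 and -1.85, gut 9 gave -2.64 and -2.57, and gut 3 gave 0.67 and 2.25.

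Zeb2 was lower in the treated well of 8 of 9 guts, in gut 3 by less than the second decimal, and higher in gut 6 at 0.20. Its untreated scores were -0.87 to 1.47 and its treated scores -1.54 to 1.01, which overlap. The mean of its 5 probe sets differed by -0.49 ± 0.50 (limma adjusted p = 0.102). Of the 5, 1434298_at fell in 9 of 9 guts by 0.88 ± 0.34 (adjusted p over all probe sets 0.0111), and it agreed best between batches (r = 0.894). The next in agreement, 1456389_at (r = 0.463), was at -0.67 ± 0.64 and did not pass (adjusted p = 0.0754). The remaining 3 were at -0.57, -0.36 and 0.03. Taken by its most reproducible probe set, Zeb2 was at -0.88 with an adjusted p of 0.00739, and by the median of probe sets at -0.60 with 0.0390. Agreement between batches was taken over treated and untreated wells, so a choice by it can favour probe sets with a GDNF difference.

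Tfap2b, the paralogue of Tfap2a, did not pass. Its differences ran from -2.66 in gut 5 to 2.33 in gut 6 with a median of -0.25, and the mean was -0.29 ± 1.29 (n = 9, limma adjusted p = 0.607). Whether it differs from Tfap2a was not tested, since the 2 genes are on separate scales. Of its 2 probe sets, 1423340_at had r = -0.394 between batches and a difference of 4.12 in gut 6 alone, and 1435670_at had r = 0.641 and a mean of -0.59 ± 1.32. Pax3 was at -0.06 ± 0.79 (adjusted p = 0.883), with gut 3 at 1.16, gut 9 at 1.27 and the other 7 guts between -0.98 and -0.01. Its 3 probe sets lay at 0.10, 0.36 and -0.65 and did not pass.

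Of the neuronal factors, Hand2 was higher in 7 of 9 guts and did not pass. Its untreated scores ran from -2.21 to 0.69 (median -0.43) and its treated scores from -1.36 to 1.73 (median 0.25), which overlap. Gut 4 at -0.77 and gut 9 at -1.34 went against the other guts, which lay between 0.68 and 1.79. The mean was 0.58 ± 0.99 (n = 9, limma adjusted p = 0.173), and without gut 9 it was 0.82 with an adjusted p of 0.0360. In gut 9 both batches gave a lower treated well, at -1.86 and -0.83. All 3 probe sets had means above 0, at 0.86, 0.59 and 0.29, and did not pass.

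Averaged over batches, Tlx2 differed little between the wells of a gut. In 8 guts this averaged difference lay between -0.65 and -0.28, and gut 4, read in batch 1 alone, was at 0.62. The batches disagreed in gut 3, with 0.22 in batch 1 and -1.52 in batch 2, and in gut 9, with -0.67 and 0.09. Gut 8 gave -0.31 and -0.38. The mean was -0.26 ± 0.35 (n = 9, limma adjusted p = 0.356). Guts differed more than treatments, from -1.48 in gut 4 to 1.37 in gut 9 in the untreated wells and from -1.27 in gut 1 to 1.07 in gut 9 in the treated ones. Insm1 showed the same kind of spread, with untreated scores from -2.15 in gut 1 to 2.29 in gut 4 and a difference of -0.23 ± 0.59 (adjusted p = 0.494). Its probe sets had r = 0.272 and r = -0.730 between batches, and gut 3 gave -2.14 in batch 1 and 2.25 in batch 2. Gata3, with 1 probe set and r = -0.231, was at -0.14 ± 1.06 (adjusted p = 0.779). Averaged over batches, gut 3 stood at 2.03 against -1.28 to 0.71 in the others. The batches disagreed, with gut 3 at 0.61 in batch 1 and 3.44 in batch 2, and gut 9 at 2.08 and -0.65.

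**Figure D2:**
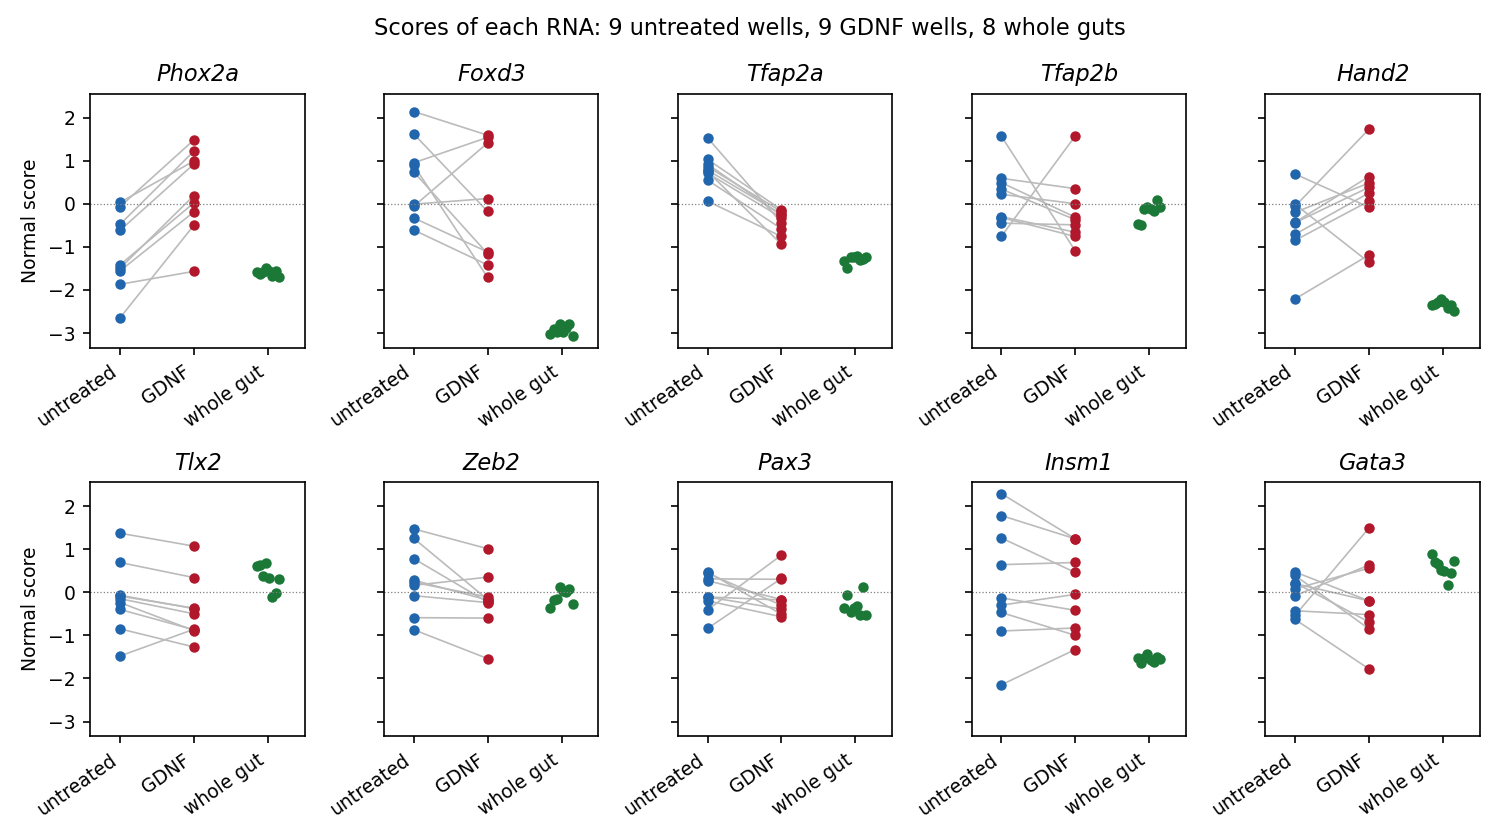
Normal scores (vertical axis) of each RNA for the 10 genes: 9 untreated wells (blue), 9 GDNF wells (red) and 8 whole guts (green), with grey lines joining the wells of a gut. ENCC points are means over batches, so gut 2, whose untreated well was read in batch 2 alone, can differ from its within-batch difference. Foxd3, Hand2, Tfap2a and Insm1 have whole gut means of -2.93, -2.34, -1.29 and -1.55, below most ENCC points.

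Agreement between batches differed widely among the probe sets. Of the 22, 10 had r over 0.6 over the 7 RNAs read in both batches and 5 had r below 0, and the median r was 0.442 against 0.370 over all probe sets, of which 27.2% were below 0. The 4 probe sets that passed the GDNF test, 1 of Phox2a, 2 of Tfap2a and 1 of Zeb2, had r of 0.863 to 0.928. That is 1 of 22 higher and 3 of 22 lower, against 16.9% and 13.2% of all probe sets, 30.1% together. The 7 RNAs include treated and untreated wells, so a GDNF difference by itself raises this r.

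**Figure D3:**
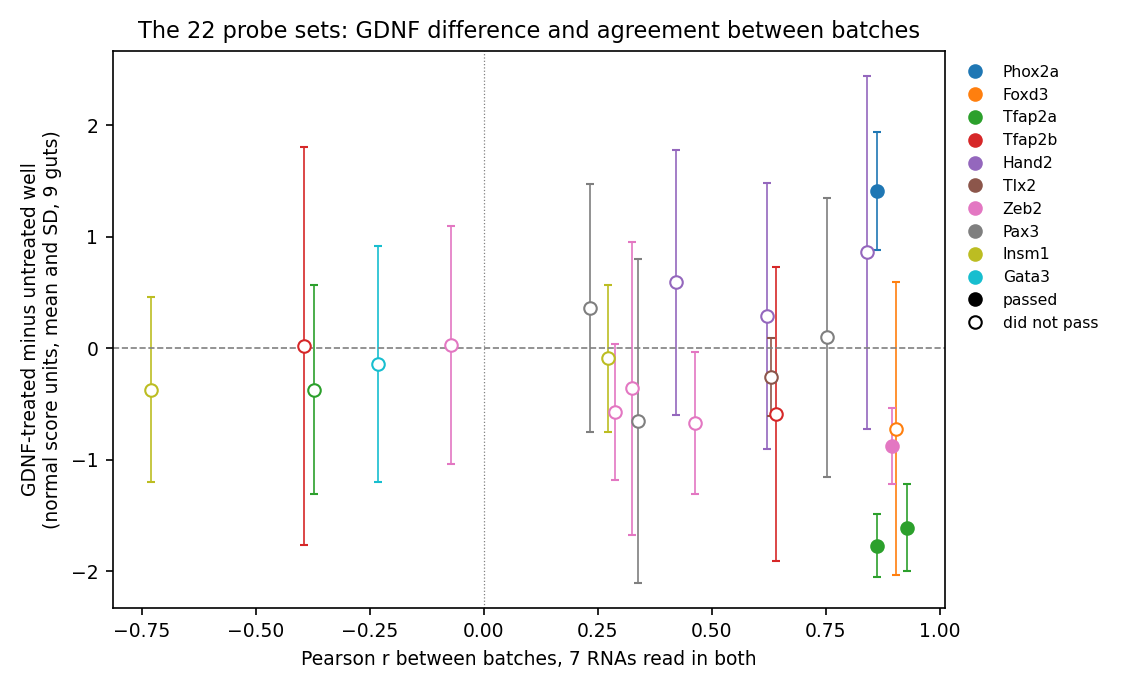
Each of the 22 probe sets by its Pearson r between batches over 7 RNAs (horizontal axis) and its within-gut GDNF difference in normal score units (vertical axis, mean and SD over 9 guts), coloured by gene. The 4 filled points, which passed limma's test, all have an r of 0.863 or higher.

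Other lists moved with GDNF in the same guts. The mean of 14 neuron genes rose by 1.23 ± 0.23 and was above 0 in 9 of 9 guts, with 10 genes called higher. Genes of ribosomal proteins, taken as a sign of RNA quality, lay at -0.98 ± 0.42 and below 0 in 9 of 9 guts (6 of 7 called lower), and gut mesenchyme genes at -0.59 ± 0.45, also below 0 in 9 (4 of 12 lower). Their part in the changes of Phox2a and Tfap2a was not tested. ENCC progenitor and glia genes were called higher in 3 of 10 and lower in 1. Of the remaining markers, 1 of 11 epithelium, 1 of 8 endothelium and 1 of 6 mesothelium genes rose, macrophage and lymphoid genes rose in 1 and fell in 1 of 9, and limma called 0 of 8 smooth muscle and 0 of 5 melanocyte genes (1 and 0 at an unadjusted p under 0.05). The hybridisation control probe sets differed by -0.72 ± 0.99 and were lower in 6 guts. At a control difference of 0, an alternative chosen after seeing the data, Phox2a was at 1.42 (adjusted p = 0.00399) and Tfap2a at -1.16 (0.00588). In bulk RNA, fewer cells of a type and less RNA per cell cannot be told apart.

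Factors related to the 10 genes were described from lists. Of 23 measured autonomic factors 3 rose and 3 fell with GDNF (median -0.29), no more than the 18.3% and 13.2% of all genes. Ebf1 and Ebf3, helix-loop-helix factors of differentiating neurons, rose by 1.31 ± 0.49 and 1.04 ± 0.56 (n = 9 guts, limma adjusted p = 0.00047 and 0.00297), and Meis2, a homeodomain cofactor, fell by 1.14 ± 0.77 (adjusted p = 0.0046), with St18 at -0.71. Of 24 crest factors 2 rose and 10 fell, against 18.3% and 13.2% of all genes, and the median was -0.49. Of these, Snai2 fell by 1.63 ± 0.59 (limma adjusted p = 0.00018). Msx1, a homeobox gene of the dorsal neural tube and crest, fell by 1.49 ± 0.92 (0.00155), while Dlx1 rose by 1.08 ± 0.63 and Rxrg by 0.93 ± 0.68. Snai2 and Msx1 are also expressed in mesenchyme, and the gut mesenchyme list stood at -0.59 in the same guts. Its part in their fall was not tested.

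Of 8 genes of noradrenaline synthesis and storage, which Phox2a, Hand2 and Gata3 are known to serve in sympathetic neurons, 5 rose and 1 fell with GDNF, against 18.3% and 13.2% of all genes. The vesicular transporter Slc18a2 rose by 1.87 ± 0.27 and Gch1, which makes the cofactor of tyrosine hydroxylase, rose by 1.66 ± 0.34 (n = 9, limma adjusted p = 6.5e-05 and 7e-05). Ddc, the decarboxylase shared with serotonin synthesis, fell by 0.97 ± 0.79 (adjusted p = 0.0128).

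Against whole gut, 5 of the 10 genes were higher in untreated ENCCs of batch 2, namely Foxd3, Hand2, Insm1, Tfap2a and Phox2a, and 1, Gata3, was lower. In GDNF-treated ENCCs the same 5 genes were higher and 0 were lower by limma (also 0 at an unadjusted p under 0.05). Both comparisons use the same 8 whole guts. Limma's fit took 1 spread for both groups, while the ENCC wells of these genes spread more than the whole guts. For Phox2a the SD was 0.60 in untreated and 0.97 in treated wells, against 0.06 in whole gut. For Foxd3 it was 0.83 and 1.55, against 0.10. The SE and adjusted p-values against whole gut can therefore be too small. Limma called 42.6% of all genes for untreated ENCCs (19.8% higher, 22.8% lower) and 51.0% for treated ENCCs (25.1% higher, 26.0% lower). The ENCC wells of batch 2 and whole guts did not overlap for those 5 genes in either comparison, as in 27.6% and 34.9% of all genes. With all 9 guts this did not hold for Phox2a, with untreated gut 4 at -2.65 and treated gut 1 at -1.57. Nor did it hold for untreated Insm1, with gut 1 at -2.15. Guts 1 and 4 were read in batch 1, unlike the whole guts. Beside these 5 genes, neuron genes were higher than in whole gut in 12 of 14 (untreated) and 14 of 14 (treated), and ENCC progenitor and glia genes in 8 and 9 of 10. Gut mesenchyme genes were lower in 6 and 10 of 12, and ribosomal protein genes in 0 and 6 of 7 (also 0 and 6 at an unadjusted p). The part of these lists in the members' differences was not tested.

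Foxd3 stood far above the tissue in both ENCC groups. It scored 1.62, -0.34, 0.66 and 1.04 in the untreated wells of guts 2, 3, 8 and 9, and -0.37, 1.91, -1.20 and -1.53 in their treated wells, while the 8 whole guts lay between -3.07 and -2.79 (median -2.93). Untreated ENCCs were higher by 3.67 (SE 0.27, limma adjusted p = 3.2e-07) and treated ENCCs by 2.63 (SE 0.47, adjusted p = 0.00045). Every ENCC well was above every whole gut. Hand2 scored -0.43, -0.25, -1.16 and -0.19 in the untreated wells and 0.74, 1.84, 0.23 and -1.03 in the treated ones, against -2.50 to -2.22 in whole gut. That was 1.84 higher in untreated ENCCs (SE 0.19, adjusted p = 3.6e-06) and 2.79 higher in treated ENCCs (SE 0.37, adjusted p = 3.4e-05). Of its 3 probe sets, 1443854_at did not pass for untreated wells (0.74, adjusted p = 0.111), and all 3 passed for treated wells.

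Tfap2a scored 0.71, 0.53, 0.01 and 0.56 in untreated wells, -0.51, -0.26, -0.13 and -0.23 in treated wells and -1.49 to -1.22 in whole gut. The treated wells thus lay between the untreated wells and the tissue. The difference from whole gut was 1.74 (SE 0.16, n = 4 and 8, limma adjusted p = 2e-06) without GDNF and 1.01 (SE 0.12, adjusted p = 1e-05) with it. The probe set that did not reproduce between batches, 1421995_at, did not pass here either (-0.36 and 0.52), and the most reproducible one gave 2.72 and 1.35. Phox2a had the other order. Its untreated wells scored -1.50, -1.01, -0.08 and -0.70, gut 2 lying at the upper edge of the whole guts, which were at -1.69 to -1.50, and its treated wells scored 0.21, -0.28, 1.58 and 1.65. Untreated ENCCs were higher by 0.78 (SE 0.22, adjusted p = 0.00919) and treated ENCCs by 2.39 (SE 0.31, adjusted p = 2.6e-05). With the untreated wells of all 9 guts in both batches the first difference was 0.47 and did not pass (adjusted p = 0.202).

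Insm1 scored 1.26, -1.04, 0.19 and 0.37 in untreated wells and 0.40, 1.21, 0.41 and -0.22 in treated wells, with whole guts between -1.65 and -1.43. It was higher by 1.75 (SE 0.30, limma adjusted p = 0.00031) and 2.00 (SE 0.20, adjusted p = 3.2e-06), and both probe sets passed in both comparisons despite their poor agreement among ENCC arrays. Untreated and treated wells of Foxd3, Hand2 and Insm1 overlapped, and these 3 did not pass the GDNF test, so the order of the ENCC groups within them does not exceed the spread.

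**Figure D4:**
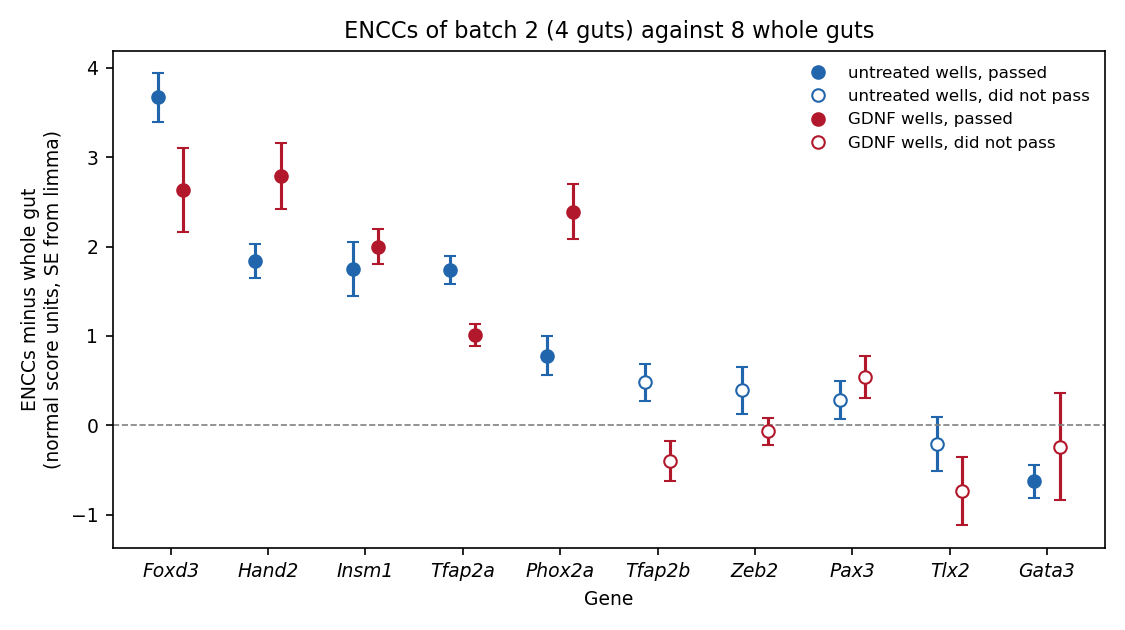
Difference in normal score between ENCCs of batch 2 (4 guts) and 8 whole guts for the 10 genes, with SE from limma, for untreated (blue) and GDNF-treated wells (red), filled where limma's adjusted p was under 0.05. Foxd3 stands at 3.67 and 2.63, Phox2a at 0.78 and 2.39, and Tlx2 and Gata3 lie below 0.

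The ENCC wells of the other 5 genes overlapped the whole guts' range or lay on both sides of it. Gata3 scored 0.39, -0.22, -0.09 and -0.28 in untreated wells against 0.17 to 0.89 in whole gut, a difference of -0.63 (SE 0.18, n = 4 and 8, limma adjusted p = 0.0130), with 1 well inside the tissue's range. In treated wells it was at -0.24 (SE 0.60, adjusted p = 0.767), where gut 3 scored 3.23 and the other 3 wells -0.93 to -0.06. The same treated RNA of gut 3 scored -0.25 in batch 1. Without gut 3 the difference was -1.20 (adjusted p = 0.00035). Tlx2 was at -0.21 and -0.74 (adjusted p = 0.598 and 0.121), and without gut 9, whose treated well scored 1.31, the treated difference was -1.31 (adjusted p = 0.00012).

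Zeb2 was at 0.39 and -0.07 against whole gut (limma adjusted p = 0.237 and 0.722). Its probe sets spread widely, from 1.44 for 1434298_at (adjusted p = 0.00191) to -0.46 for 1454200_at in untreated wells. Without gut 3, whose untreated well is in doubt, the gene was higher by 0.73 in untreated ENCCs (adjusted p = 0.00184). Pax3 was at 0.28 and 0.54 (adjusted p = 0.295 and 0.0667). Its most reproducible probe set, 1420389_at, was 1.65 higher in treated wells (adjusted p over all probe sets 0.00052), and without gut 2 the gene passed at 0.72 (0.0191). Tfap2b was at 0.48 and -0.40 (adjusted p = 0.0743 and 0.143), passed in untreated wells without gut 2 at 0.68 (0.00786), and passed in treated wells without gut 2 or gut 9 at -0.56 and -0.58. Over single probe sets, 9 of 22 were higher and 1 lower in untreated ENCCs, against 18.6% and 19.2% of all probe sets (37.8% together). In treated ENCCs 12 of 22 were called, each higher, against 23.7% higher and 23.5% lower (47.2% together).

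Among related crest factors, Dlx2 and Nr2f1 stood 2.95 and 2.24 above whole gut in untreated ENCCs (limma adjusted p = 9.6e-06 and 3.4e-06). Myc and Id2 stood at -1.23 and -1.06 (0.00825 and 0.005). Among autonomic factors, Tbx3 and Meis3 stood at 1.57 and 1.36 (2.3e-05 and 0.00161). Isl1, a LIM homeodomain factor of autonomic and sensory neurons, stood at -1.59 (7e-05) and Meis2 at -0.98 (0.00102). In untreated ENCCs 10 of 24 crest factors were higher and 3 lower, and 4 of 23 autonomic factors were higher and 5 lower, against 19.8% higher and 22.8% lower over all genes. In treated ENCCs the counts were 7 and 6 of 24, and 3 and 7 of 23, against 25.1% and 26.0%. The autonomic counts in untreated ENCCs and the crest counts in treated ENCCs are near those shares. Slc18a2, the noradrenergic gene with the largest rise, was 2.45 above whole gut in treated ENCCs (adjusted p = 5e-09), and of the 8 noradrenergic genes 1 was higher in untreated ENCCs, and 5 were higher and 1 lower in treated ENCCs.

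The differences of the 10 genes were also set against each other gut by gut. Over the 9 guts, 0 of 45 pairs of within-gut differences correlated after Benjamini-Hochberg adjustment (exact permutation tests, two-sided, smallest adjusted p = 0.258), and 5 had an unadjusted p under 0.05. Foxd3 and Zeb2 were closest, with r = 0.82 and rho = 0.83 (exact permutation p = 0.00703 and 0.00827, adjusted 0.258 and 0.372), and r = 0.69 without guts 3 and 9. For Phox2a and Tfap2a r was 0.79 and rho 0.30 (exact permutation p = 0.0167 and 0.437, adjusted 0.258 and 0.783), and r = 0.71 without guts 1 and 4. Pax3 and Gata3 had r = 0.77 and rho = 0.62 (exact permutation p = 0.0172 and 0.0857, adjusted 0.258 and 0.484), and r = 0.20 without guts 3 and 9, so that relation rests on those guts.

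Over the 18 ENCC RNAs, the gene most like Zeb2 by Pearson r was Cdh19 (0.96), a cadherin of Schwann cell precursors and enteric glia, followed by Afap1l2 (0.94). Phox2a was most like Coa3 and Nt5c (0.95 each), Insm1 like Lrpap1 (0.93) and Prtg (0.90), Tfap2a like Fbxo8 (0.90) and Slc38a10 (0.89), and Foxd3 like Ndrg1 (0.89) and Sfswap (0.86). Hand2 was most like Gsdme (0.84) and Tlx2 like Edil3 (0.83). For Tfap2b, Pax3 and Gata3 the highest r were 0.74, 0.70 and 0.73. These are the highest of all other genes, chosen as such, and the points share their arrays and scaling.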

How the data were processed

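Affymetrix arrays of 25 ENCC and 8 whole gut samples were read from the series' value table. The submitters' processing notes name RMA. The deposited values are scores: the 45101 sorted values of each array equal normal quantiles within 5e-06, from -4.084 to 4.084. Within a batch, probe set means over the 7 RNAs read in both lay close to 0 (SD 0.0585 and 0.117), so probe sets appear to have been centred within batch. These steps are read from the values and not given in the sources used here. With such centring the brightness of probe sets relative to each other is lost, so dim probe sets could not be left out. How any scaling changed the size of GDNF differences was not tested.

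Probe sets with 1 symbol were averaged per gene, without 64 control probe sets. Symbols came from the platform annotation. Limma (3.58.1, R 4.3.3) was fitted with lmFit and eBayes over all genes, and again over all probe sets, with Benjamini-Hochberg adjustment and a threshold of 0.05. For GDNF the 9 within-gut differences were taken inside a batch and averaged over batches. The labels' treatment protocol says that a gut gave both wells, and the gut is read from the number in the title. Deviations of paired wells correlated at -0.00685 to 0.279 in batch 1, over 0.1 in 7 of 8 guts, and 0 of 8 wells correlated best with the partner from their own gut. Whole guts were compared with the 4 ENCC guts of their batch. Shared litters or pooling are not given in the labels, so p-values measure the spread between these samples. The number of arrays limits the precision. The fits were also run on simulated data, and the outcome is not given here. Whether the p-values against whole gut hold when ENCC wells spread more than whole guts was not tested.

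The members and lists were chosen with earlier results of these data known. All members were described. Of each related list up to 2 genes that rose and 2 that fell by the largest difference were named. Limma's fit was repeated without pairing, by batch, without each gut, without doubted arrays, with other summaries of probe sets, with controls as a covariate and with robust moderation.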

Additional observations from a re-analysis of the deposited data

Results flagged for a closer look

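Of 60 groups of member scores tested for a sample apart from the rest, 3 had one, and chance gives about 1 in 20. The Tlx2 difference of gut 4 was 0.62, against -0.65 to -0.28 in the other 8 guts as averages over batches. Single batches spread more, with gut 3 at 0.22 in batch 1 and -1.52 in batch 2. The treated well of gut 9 in batch 2 scored 1.31 for Tlx2, against -1.11 to -0.70 in the other 3 wells. Whole gut 2 scored -1.49 for Tfap2a, against -1.32 to -1.22 in the other 7.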

How the results depend on the processing

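With GDNF, the calls of Phox2a and Tfap2a held under 20 of the 21 alternatives. The exception was batch 2 alone, where limma called 0 genes (3516 at an unadjusted p under 0.05) and both lost their calls. With all guts it called 5725 genes (7483 at an unadjusted p under 0.05). Tfap2b, Tlx2, Pax3, Insm1 and Gata3 gained no call under any of the 21. Without a gut in turn, limma called 5029 to 5909 genes, Phox2a stayed at 1.32 to 1.55 and Tfap2a at -1.30 to -1.16. Without the replicate block, limma called 4859 genes, Phox2a was at 1.41 (adjusted p = 0.0113) and Tfap2a at -1.23 (0.0002), and no call among the 10 genes changed. Of 390 member values under alternatives, 373 stayed on their side of the threshold, 3 lost and 14 gained a call, and 0 called values reversed. Against whole gut, leaving out a gut gave 8155 to 9497 calls for untreated and 9716 to 9835 for treated ENCCs, against 7752 and 9281. Tlx2 was also lower in treated ENCCs with all 9 guts (-0.77, adjusted p = 0.0180). With the probe sets _s_at left out, Tfap2a was at -0.99 with GDNF. Batch 2 holds fewer guts, and the Tfap2a difference was also smaller there (-0.73, against -1.43 in batch 1). The causes of these changes, the loss of calls in batch 2 among them, were not tested.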
